A study of Mus musculus with 4 samples.

Results

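The genes of the mitochondrial respiratory chain and ATP synthase were described across 4 libraries of mouse oocytes. Members were the nuclear genes whose symbol begins with Nduf followed by a, b, c, s or v, with Uqcr, with Cox4 to Cox8 or with Atp5, together with Cyc1 and Sdha to Sdhd. The rule found 94 of 21957 genes in the FPKM table, of which 85 encode subunits and the rest are 8 complex I assembly factors (Ndufaf1 to Ndufaf8) and Atp5s, which is not a subunit of the synthase. Complex I had 44 members, complex II 4, complex III 9, complex IV 20 and complex V, the ATP synthase, 17. Ndufa4 and its relative Ndufa4l2 were counted with complex IV, to which the NDUFA4 protein belongs in spite of its name. FPKM (mapped fragments per kilobase of transcript, scaled to the number mapped in the library) is a level per unit of transcript length, and 86 members reached 5 FPKM in at least 1 library.

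The oocytes came from B6D2F1 (C57BL/6 x DBA) hybrid females aged 6 to 8 weeks, culture was in M16 medium, and each library was made from 100 pooled oocytes. By the study's methods, the females had been injected with pregnant mare serum gonadotropin, and cumulus cells were removed with hyaluronidase. The GV library held oocytes at the germinal vesicle stage, before culture and untreated. The MII library held untreated oocytes after 12 h of culture, collected at metaphase II with a first polar body. The TubA10 and TubA20 libraries held oocytes cultured for 12 h with 10 or 20 µM tubastatin A, known as a selective inhibitor of the deacetylase HDAC6, which was dissolved in DMSO. Selection for a polar body is stated for the MII oocytes and not for the treated ones, so the stage reached and the drug cannot be told apart. The MII title calls its sample an embryo. The titles give 10 and 20 µM, whereas the treatment labels read 20 µM for TubA10 and 11 µM for TubA20; the titles were followed here. Each condition was 1 library, so no difference below has a replicate check, no test was possible, and every change is a difference between libraries.

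The respiratory chain passes electrons from NADH through complex I, or from succinate through complex II, by way of coenzyme Q to complex III, then through cytochrome c to complex IV, which reduces oxygen. Complexes I, III and IV pump protons across the inner mitochondrial membrane, and complex V lets them flow back through a rotating ring to make ATP. Oocytes carry very many mitochondria, rely on oxidative phosphorylation of pyruvate supplied by the surrounding cells, and make little or no new RNA between the resumption of meiosis and fertilisation, so that changes in mRNA at these stages are known to come mainly from decay and from changes of the poly(A) tail.

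The summed FPKM of 10 oocyte markers, such as Gdf9, Zp3 and Dppa3, lay between 16439 in GV and 22263 in TubA20, although single markers differed in direction, with Zp3 at 2454 FPKM in GV and 973 in TubA20 and Gdf9 at 1774 and 3822. That of 10 cumulus and granulosa cell markers lay between 10.0 in TubA10 and 16.3 in GV, with Foxl2 at 0 in every library, Amh at 0 in all but GV, and Cyp19a1, at 6.14 to 10.3 FPKM, and Inha, at 7.50 in GV, the exceptions above 5 FPKM. Inha was far lower in the cultured libraries, at 0.31 FPKM in MII, 0.31 in TubA10 and 0.24 in TubA20. Cyp19a1 went the other way, at 6.14 FPKM in GV, 8.60 in MII, 7.42 in TubA10 and 10.3 in TubA20. These markers therefore differed in direction too. The summed FPKM of 5 blood markers lay between 1.64 and 2.26, with both haemoglobin genes at 0. Relative sequencing depth, read from the smallest steps of low values, was 1.64 times that of GV in MII, 1.68 times in TubA10 and 0.901 times in TubA20. This is an estimate for the fragments counted in genes, which can differ from that for the reads sequenced. The table gives no fragment counts, and the read totals stated by the study were not used here. Of 9193 genes that no library had below 1 FPKM, the median log2 change was 0.14 for MII, 0.16 for TubA10 and 0.23 for TubA20 against GV, so members are set against genes that were on balance slightly higher after culture.

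Added over all 94 genes, the FPKM was 27854 in GV, 17956 in TubA10, 15715 in MII and 14263 in TubA20. These sums were 4.47%, 3.04%, 2.77% and 2.27% of the whole table. GV stood above the 3 cultured libraries, and TubA20 was the lowest. The complexes did not share this difference equally. The sum for complex V went from 8692 in GV to 3798 in TubA10, 3170 in MII and 1927 in TubA20, and that for complex I from 8879 to 6083, 4882 and 3921. Complex III gave 3731, 2306, 2084 and 1606, and complex II gave 408, 252, 167 and 155, in the same order of libraries. Complex IV was the exception, at 6144 in GV, 5517 in TubA10, 5412 in MII and 6654 in TubA20, its highest value. FPKM is relative to the rest of each library, so less of these mRNAs per oocyte and more of other mRNAs cannot be told apart.

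**Figure D1:**
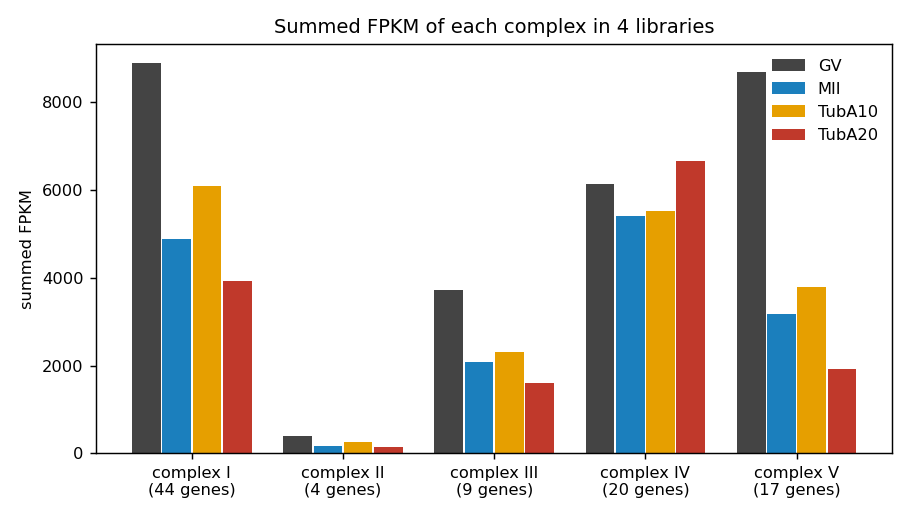
Summed FPKM (vertical axis, linear, from 0) of the genes of each complex in the GV, MII, TubA10 and TubA20 libraries, 1 bar per library. Complexes I, II, III and V are highest in GV and lowest in TubA20, whereas complex IV lies between 5412 and 6654 in all 4 libraries.

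Against GV, changes were taken as the log2 ratio of FPKM + 1, and a gene was counted as lower or higher past 2-fold. In MII, 43 of the 94 members were more than 2-fold lower and 0 were more than 2-fold higher, where 8.34% of all genes were lower and 3.05% higher; the members' median was -0.92. In TubA10, 33 were lower and 0 higher, against 5.6% and 0.742% of all genes, with a median of -0.67. In TubA20, 56 were lower and 5 higher, against 11.7% and 7.61% of all genes, with a median of -1.67. Many genes of the table are silent in oocytes, so the shares among genes with at least 5 FPKM in GV or the other library are the nearer comparison. They were 20.8% lower and 8.26% higher for MII, 14.2% and 1.77% for TubA10, and 26.8% and 20.2% for TubA20. With the same minimum, 53 of 86 members were lower and 5 higher in TubA20, with a median of -1.81 where that of all 7778 such genes was 0.23. The comparisons with GV share that 1 library, so they do not bear on each other independently. With libraries scaled to equal Gapdh in place of FPKM as deposited, the members of TubA10 against GV were 22 lower and 3 higher. Over all genes this scaling gave 861 lower and 750 higher, where FPKM as deposited gave 1230 and 163.

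**Figure D2:**
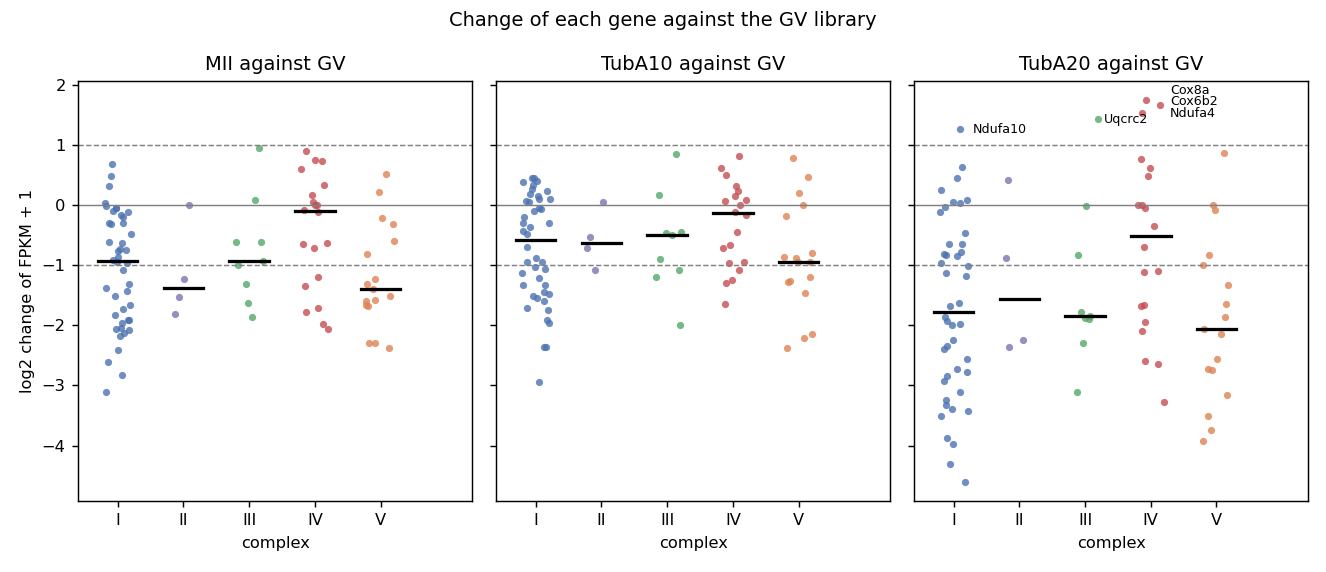
Log2 change of FPKM + 1 against the GV library (vertical axis) for every member, by complex (horizontal axis), in MII, TubA10 and TubA20. Points are genes, black bars are medians and dashed lines mark 2-fold. Genes more than 2-fold higher are named, and all 5 of them are in TubA20.

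Of the 56 members lower in TubA20, 16 were more than 8-fold lower, 19 between 4- and 8-fold and 21 between 2- and 4-fold. Medians against GV were -1.77 for complex I, -1.56 for complex II, -1.84 for complex III, -0.52 for complex IV and -2.05 for complex V. The corresponding medians in MII were -0.92, -1.37, -0.93, -0.09 and -1.39. The median of complex IV was the nearest to 0 in both libraries, and those of complexes II and V in MII differed by less than the settings moved them. The complex IV medians include genes near 0 FPKM whose change is close to 0 by construction, and with a minimum of 1 FPKM they were -0.89 in TubA20 and -0.37 in MII, again the nearest to 0.

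Complex I, NADH dehydrogenase, has a hydrophilic arm that binds NADH and a membrane arm that pumps protons. The nuclear genes of its 7 core subunits, which hold the flavin and the iron-sulfur clusters, were among the lowest in TubA20 relative to GV. Ndufv1, which binds NADH and FMN, had 64.7 FPKM in GV, 14.9 in MII, 21.6 in TubA10 and 4.76 in TubA20, a log2 change of -3.51 in TubA20 against GV. GV was the highest and TubA20 the lowest. Ndufs7, which carries the last cluster before coenzyme Q, went from 265 in GV to 62.8, 106 and 24.3, and Ndufs8 from 106 to 24.4, 27.6 and 9.72, with changes of -3.40 and -3.32. Ndufv2 and Ndufs3 changed by -2.93 and -2.55. In contrast, Ndufs1, which also carries iron-sulfur clusters, was not lower but had a low level, with 9.86 FPKM in GV, 9.12 in MII, 13.5 in TubA10 and 13.8 in TubA20, a change of 0.45. The median of the 7 was -3.32, with 6 of 7 more than 2-fold lower, where 18 of the 29 accessory subunits were lower, with a median of -1.62. At the minimum of 5 FPKM, which all of these genes passed, 26.8% of all genes were lower.

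Ndufb7, an accessory subunit on the outer face of the membrane arm, had the lowest change of all members. It lies at chr8:83566671-83571626 (GRCm38, plus strand) and had 419 FPKM in GV, 47.9 in MII, 53.5 in TubA10 and 16.3 in TubA20, a log2 change of -4.60 in TubA20 against GV that was undercut by 3 of the 7778 genes with at least 5 FPKM in GV or TubA20. Ndufa9, which sits where the arms meet, had 276, 44.5, 70.4 and 16.7 FPKM in the same order and a change of -3.97. The assembly factor Ndufaf3 had 95.5, 12.7, 17.8 and 3.86 and a change of -4.31. All 3 were far higher in GV than in any cultured library and lowest in TubA20. In the other direction, Ndufa10, a membrane-arm subunit related to nucleoside kinases (chr1:92439010-92473860, minus strand), had 78.4 FPKM in GV, 127 in MII, 108 in TubA10 and 190 in TubA20, a change of 1.27. Ndufa1, a small membrane-arm subunit, had 277, 387, 349 and 431, a change of 0.64. Both were lowest in GV and highest in TubA20. A further 5 complex I members, Ndufa13, Ndufb6, Ndufb8, Ndufaf2 and Ndufaf4, lay within 0.25 of no change on the log2 scale; the sign of each of these 5 turned under at least 1 other scaling of the libraries. Of the 8 assembly factors, 3 were more than 2-fold lower (Ndufaf3, Ndufaf5 and Ndufaf6) and 0 higher, with a median of -0.83. With no minimum, 11.7% of all genes were lower and 7.61% higher. The 3 lower factors passed the minimum of 5 FPKM, at which 26.8% of all genes were lower, whereas Ndufaf1, at 0.897 FPKM in GV, did not.

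Complex II, succinate dehydrogenase, has only nuclear-encoded subunits and also acts in the citric acid cycle. Sdha, the flavoprotein that oxidises succinate, had 47.1 FPKM in GV, 47.6 in MII, 48.9 in TubA10 and 63.2 in TubA20, a log2 change of 0.42 in TubA20 against GV. Its partner Sdhb, the iron-sulfur subunit, had 153, 52.5, 71.9 and 28.8, a change of -2.37. In GV there was thus more Sdhb than Sdha per unit of length, and in TubA20 less. The membrane anchor Sdhd had 147 FPKM in GV, 41.0 in MII, 89.2 in TubA10 and 30.1 in TubA20, a change of -2.25. The other anchor, Sdhc, had 61.3, 25.7, 42.2 and 33.0, a change of -0.87.

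Complex III moves electrons from reduced coenzyme Q to cytochrome c through the Rieske protein and cytochrome c1. Uqcrfs1, the Rieske iron-sulfur protein, had 31.5 FPKM in GV, 12.2 in MII, 13.2 in TubA10 and 8.44 in TubA20, a log2 change of -1.78 in TubA20 against GV. Cyc1, cytochrome c1, had 20.6, 9.79, 9.22 and 4.86, a change of -1.88. The paired core proteins parted. Uqcrc1 had 13.0 FPKM in GV, 8.20 in MII, 9.20 in TubA10 and 2.91 in TubA20, a change of -1.84. Uqcrc2 (chr7:120635176-120659524, plus strand) had 112, 219, 203 and 305, a change of 1.43. Among the small subunits, Uqcrq had 1508 FPKM in GV, 414 in MII, 378 in TubA10 and 175 in TubA20, a change of -3.10, and Uqcrb and Uqcrh changed by -2.30 and -1.90. Uqcr10 changed by -0.83, and Uqcr11 was at 638, 682, 722 and 631 FPKM, a change of -0.01 whose sign turned with the scaling. Uqcr11 was the most abundant complex III mRNA in MII, TubA10 and TubA20, whereas Uqcrq was in GV.

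Complex IV, cytochrome c oxidase, has a core made in the mitochondrion that is surrounded by small nuclear subunits, several of which exist as isoforms of heart and skeletal muscle, lung or testis. Its 14 members with at least 5 FPKM split into 7 more than 2-fold lower in TubA20 than in GV, 3 more than 2-fold higher and 4 between, where 26.8% of all genes at this minimum were lower and 20.2% higher, so that the share of higher genes was near that of the table. The spread of log2 levels between these 14 genes (SD) was 1.27 in GV, 1.73 in MII, 1.57 in TubA10 and 2.28 in TubA20. Cox4i1, the common form of subunit 4, had 967 FPKM in GV, 246 in MII, 309 in TubA10 and 98.7 in TubA20, a log2 change of -3.28. Cox7b, a small membrane subunit, had 78.5, 33.9, 49.4 and 11.8, a change of -2.63. Both were highest in GV and lowest in TubA20. Cox7c had 528 FPKM in GV, 343 in MII, 474 in TubA10 and 87.2 in TubA20, a change of -2.59, so that TubA20 alone lay far below the other libraries; its transcript has a near-identical pseudogene copy, and its value is uncertain.

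The 3 complex IV members that were higher in TubA20 were each at their lowest in GV. Cox8a, a small membrane subunit (chr19:7215153-7217616, minus strand), had 341 FPKM in GV, 573 in MII, 602 in TubA10 and 1154 in TubA20, a log2 change of 1.75. Cox6b2, the testis form of subunit 6b (chr7:4751792-4753094, minus strand), had 204, 312, 256 and 652, a change of 1.67. Ndufa4 (chr6:11900292-11907497, minus strand) had 394, 669, 562 and 1145, a change of 1.54. Together these 3 genes made up 15.3% of the summed complex IV FPKM in GV, 28.7% in MII, 25.8% in TubA10 and 44.4% in TubA20. Without them the complex IV sum was 5204 in GV, 3857 in MII, 4096 in TubA10 and 3703 in TubA20. Cox6a1, Cox6c and Cox7a2, all common subunits, changed by 0.77, 0.63 and 0.48.

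**Figure D3:**
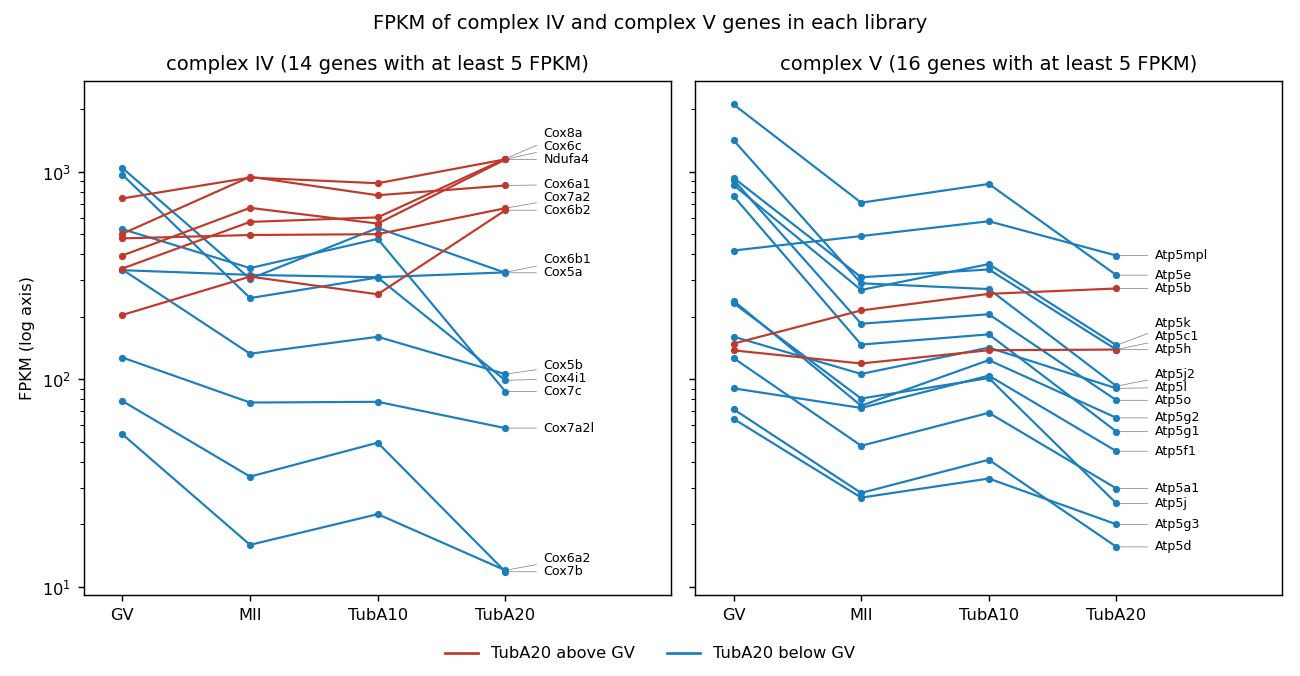
FPKM (vertical axis, log scale) of the complex IV genes (left, 14) and complex V genes (right, 16) with at least 5 FPKM in some library. Each line joins the values of 1 gene in the 4 separate libraries, red where TubA20 is above GV and blue where it is below. Complex IV divides into a higher and a lower set, whereas Atp5b is the one complex V gene well above GV in TubA20.

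Among the isoforms, Cox6b2 and Cox6a2 did not follow their partners Cox6b1 and Cox6a1. Cox6b1, the body-wide form of subunit 6b, measured 335 FPKM in GV, 318 in MII, 310 in TubA10 and 327 in TubA20, so that Cox6b2 made up 37.8%, 49.5%, 45.3% and 66.6% of the pair. Cox6a2, the heart and muscle form of subunit 6a, had 54.3 FPKM in GV, 15.9 in MII, 22.4 in TubA10 and 11.99 in TubA20, where Cox6a1 had 502, 945, 770 and 858. The muscle form therefore made up 9.75% of this pair in GV and between 1.38% and 2.82% in the others. Cox4i2, the lung form of subunit 4, was at 4.06, 4.67, 2.72 and 3.004 FPKM, and its share of the pair with Cox4i1 went from 0.418% in GV to 2.95% in TubA20, where Cox4i1 was lowest. Cox7a2l, a Cox7a2 relative that takes part in supercomplex assembly, had 127 FPKM in GV and 58.1 in TubA20, a log2 change of -1.12. Ndufa4l2 had 3.57 FPKM in GV, 0.0962 in MII, 0.857 in TubA10 and 0.184 in TubA20. The muscle form Cox7a1 and the testis form Cox8c did not exceed 1.44 and 4.10 FPKM, Cox7b2, another testis form, was listed at 0 in all but TubA10, and the muscle form Cox8b was listed at 0 throughout.

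Complex V has a catalytic F1 head, a ring of c subunits that turns with the proton flow, a peripheral stalk that holds the head still, and small membrane subunits. Of its 17 members 12 were more than 2-fold lower in TubA20 than in GV and 0 higher, against 11.7% and 7.61% of all genes. The 12 include Atp5s, at 3.03 FPKM in GV, and with at least 5 FPKM 11 of 16 were lower, against 26.8% of all such genes. In the head, Atp5a1, the alpha subunit, had 126 FPKM in GV, 47.8 in MII, 68.8 in TubA10 and 29.7 in TubA20, a log2 change of -2.05. Atp5b, the catalytic beta subunit that pairs with alpha in equal number, had 148, 214, 258 and 274, a change of 0.88. The ratio of the pair was therefore near even in GV and strongly in favour of Atp5b in TubA20. Atp5c1, the central shaft, had 138 FPKM in GV, 119 in MII, 138 in TubA10 and 139 in TubA20, a change of 0.01 whose sign turned with the scaling. Atp5d changed by -2.13 and Atp5e, the most abundant member of all in GV with 2110 FPKM, by -2.73 to 317 in TubA20.

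The 3 c-ring genes encode the same mature protein with different import sequences. Atp5g1 had 763 FPKM in GV, 147 in MII, 164 in TubA10 and 55.9 in TubA20, a log2 change of -3.75. Atp5g2 had 239, 74.5, 124 and 65.1, a change of -1.86, and Atp5g3 had 64.4, 26.9, 33.2 and 20.0, a change of -1.64. Atp5g1 thus made up 71.6% of their sum in GV, 59.2% in MII, 51.2% in TubA10 and 39.6% in TubA20, and in the last of these Atp5g2 was the most abundant of the 3. The peripheral stalk had a median change of -2.95, the lowest of any part of the complex. Its member Atp5o, which joins the stalk to the head, had 913 FPKM in GV, 185 in MII, 206 in TubA10 and 79.1 in TubA20, a change of -3.51. Among the small membrane subunits, Atp5j2 had 1418, 290, 272 and 92.5 FPKM, a change of -3.92, whereas Atp5mpl had 417, 489, 577 and 394, a change of -0.08 whose sign also turned with the scaling. Atp5c1, Atp5g2, Atp5h, Atp5k, Atp5l and Atp5o have pseudogene copies of at least 95% identity over at least 50% of the transcript, as do Ndufb11, Ndufs3, Ndufs5, Ndufs6 and Uqcrb, and their values are uncertain to the extent that reads were shared. None of the 5 members more than 2-fold higher in TubA20 had such a copy, but neither did 82 of the 94 members.

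Against MII, the comparison of equal culture times, TubA10 and TubA20 went opposite ways. In TubA10, 2 members were more than 2-fold higher and 0 lower, against 0.515% and 0.128% of all genes (1.29% and 0.206% of those with at least 5 FPKM), with a median of 0.26. The 2 were Sdhd, at 41.0 FPKM in MII and 89.2 in TubA10, and Ndufb3, a membrane-arm subunit of complex I, at 59.3 and 120.7, with log2 changes of 1.10 and 1.01. Among genes with at least 5 FPKM in some library, 75 of 86 members (87.2%) were higher in TubA10 than in MII by any amount, as were 51.7% of all 7897. In TubA20, 26 members were lower and 2 higher, against 2.44% and 0.328% of all genes (6.09% and 0.542% of those with at least 5 FPKM), with a median of -0.52. By complex the medians of TubA20 against MII were -0.69 for I, -0.04 for II, -0.67 for III, -0.03 for IV and -0.68 for V. The 26 comprised 15 members of complex I, 2 of complex III, 3 of complex IV and 6 of complex V. With a minimum of 50 FPKM in MII or TubA20, chosen after seeing the data, 15 of 60 members were lower, against 5.33% of all such genes.

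**Figure D4:**
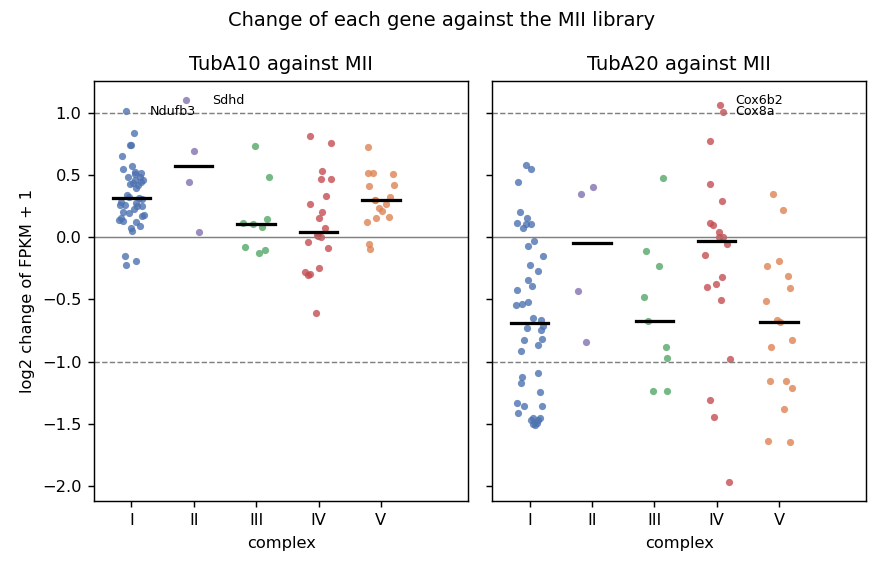
Log2 change of FPKM + 1 against the MII library (vertical axis) for every member, by complex, in TubA10 (left) and TubA20 (right). Points are genes, black bars are medians, dashed lines mark 2-fold and genes more than 2-fold higher are named. The medians of complexes I, III and V lie above 0 in TubA10 and below 0 in TubA20.

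The lowest 5 members in TubA20 against MII were Cox7c (log2 change -1.96), Atp5j, part of the peripheral stalk (-1.64), Atp5j2 (-1.64), Ndufv2 (-1.51) and Ndufb7 (-1.50). The highest were Cox6b2 (1.06), Cox8a (1.01), Ndufa4 (0.77), Ndufa10 (0.58) and Ndufs1 (0.55). Cox6b2 and Cox8a lie just past 2-fold, and setting the median change of all genes to 0, or Gapdh equal, left 0 members past it. The core subunits of complex I had a median of -1.33, with 5 of 7 more than 2-fold lower, against the 6.09% of all genes at 5 FPKM. Between the treated libraries, 42 members were more than 2-fold lower in TubA20 than in TubA10 and 2, Cox6b2 (1.34) and Ndufa4 (1.03), were higher, against 5.52% and 0.66% of all genes (14.1% and 1.45% of those with at least 5 FPKM), with a median of -0.85. Depth differed between these libraries, at 0.901 times that of GV in TubA20 and 1.68 times in TubA10; its part in the difference was not tested.

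The order GV, TubA10, MII, TubA20 from highest to lowest described 52 of the 86 members with at least 5 FPKM in some library (60.5%) and 24.2% of all 7897 such genes. It held for 28 of 43 members of complex I, 2 of 4 of complex II, 5 of 9 of complex III, 6 of 14 of complex IV and 11 of 16 of complex V. A set of 12 members was highest in TubA20, namely Atp5b, Atp5c1, Cox6b2, Cox6c, Cox7a2, Cox8a, Ndufa1, Ndufa10, Ndufa4, Ndufs1, Sdha and Uqcrc2, with 5 of them in complex IV. This share of 13.95% compares with 41.1% of all such genes. The neighbours in these orders cannot be said to differ beyond error, since each is 1 library.

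Genes that work beside the complexes were read from lists. Of 43 assembly factors outside the member rule, 22 were more than 2-fold lower in TubA20 than in GV and 0 higher, against 11.7% and 7.61% of all genes, with a median log2 change of -1.07. Among the 30 with at least 5 FPKM in GV or TubA20, 19 were lower and 0 higher, against 26.8% and 20.2% of all such genes. The lowest was Cox17, the copper chaperone of complex IV, at 999 FPKM in GV, 266 in MII, 549 in TubA10 and 91.1 in TubA20 (-3.44), and the highest was Cox10, which makes heme for complex IV, at 88.0, 124, 135 and 169 (0.94). Of 13 genes of coenzyme Q synthesis, 5 were lower and 1 higher, with a median of -0.07. Among the 9 of them with at least 5 FPKM in GV or TubA20, 3 were lower and 1 higher, near the 26.8% and 20.2% of all such genes, with a range from Coq6 (-2.31) to Coq2 (1.19). Of 12 genes listed under electron carriers and exchange, 5 were lower and 1 higher, with a median of -0.41. The list also held Atpif1 and Usmg5 (-1.22), which belong with the ATP synthase and were among the 5 lower. With at least 5 FPKM, where 26.8% of all genes were lower and 20.2% higher, the same counts held for 11 genes of the list. Among these, somatic cytochrome c, Cycs, had 68.4, 26.9, 34.3 and 23.1 FPKM (-1.53), the testis form Cyct had 13.3, 5.11, 12.8 and 3.12 (-1.80), and Atpif1, the inhibitor of ATP synthase run in reverse, had 298, 95.4, 123 and 49.0 (-2.58), the lowest of its list. The highest was Dhodh, which feeds electrons from pyrimidine synthesis into coenzyme Q, at 12.3, 20.0, 18.1 and 26.4 FPKM (1.04). Of the 13 subunits encoded in mitochondrial DNA, 8 are listed at 0 in every library although every cell uses them, so nothing was read from this list.

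Other protein families gave a measure of scale. The 78 mitochondrial ribosomal protein genes had 51 members more than 2-fold lower in TubA20 than in GV and 1 higher, with a median log2 change of -1.69, close to the -1.67 of the respiratory genes. The 82 cytoplasmic ribosomal protein genes had 68 lower and 1 higher, with a median of -2.40, and the shares of all genes with no minimum were 11.7% lower and 7.61% higher. Against MII the medians in TubA20 were -0.45 for the mitochondrial ribosome, -0.63 for the cytoplasmic ribosome and -0.52 for the respiratory genes.

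The mRNAs of these members are short. Over the 86 with at least 5 FPKM, the median 3' UTR was 160.5 nt and the median transcript 823.5 nt, where other genes had 862.5 and 2728.5 nt. Among the other genes, the median log2 change of TubA20 against GV ran with 3' UTR length, from -1.44 up to 100 nt (432 genes) and -0.66 from 100 to 200 nt to 0.57 above 800 nt (4001 genes). The members in these 3 classes had medians of -2.55 (23 genes), -1.64 (27) and -0.87 (9), below the other genes in each. From 200 to 400 nt the medians were -0.43 for 14 members and -0.41 for other genes. From 400 to 800 nt they were -1.93 for 13 members and 0.06 for 1452 other genes, so the members' medians did not climb steadily with length. At transcript lengths of 800 to 1000 nt the medians were -2.98 for 10 members and -1.003 for 293 other genes, whereas up to 600 nt they were -0.96 for 23 members and -1.56 for 111 other genes. Across the members Spearman's rho between 3' UTR length and this change was 0.18, and across 7700 other genes it was 0.30, a description over genes that share the same 2 libraries. In complex IV, with 14 members, rho was -0.02. The 5 members more than 2-fold higher had 3' UTRs of 130 (Cox6b2), 236 (Cox8a), 243 (Ndufa4), 420 (Uqcrc2) and 829 nt (Ndufa10), none below 100 nt.

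**Figure D5:**
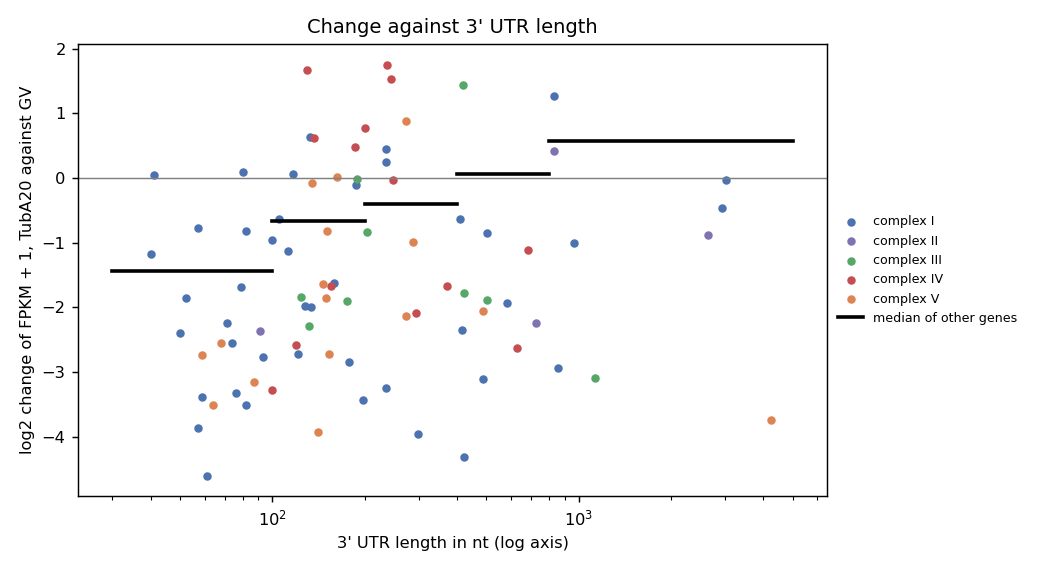
Log2 change of FPKM + 1 in TubA20 against GV (vertical axis) by annotated 3' UTR length (horizontal axis, log scale). Points are the 86 members with at least 5 FPKM, coloured by complex, and black bars are medians of other genes in the same length classes. The bars climb from -1.44 at the shortest 3' UTRs to 0.57 at the longest, and most members of complexes I and V lie below them.

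In oocytes, mRNAs with a cytoplasmic polyadenylation element near the 3' end are known to gain poly(A) during maturation. The letters TTTTAT or TTTTAAT, read on the sense strand, were sought in the last 100 nt of the 3' UTR, or in all of a shorter one. They occurred in 8 of 86 members (9.30%) and in 20.8% of other genes. A 3' UTR of at most 100 nt, which limits the window, was found in 23 of the members and in 432 of 7700 other genes. Its part in the lower share of members was not tested. Of the 8 members with the letters, 7 were more than 2-fold lower in TubA20 than in GV, where 11.6% of the other genes with these letters and 29.8% of those without were. Most members without the letters were lower too, 46 of 78 (59.0%), and the medians of members with and without them were -1.92 and -1.73. The sites of 7 are shown so that the element can be set beside each gene's change, and that of the eighth, Ndufa2, is not shown. Each is given as 30 bases of the annotated 3' end of the transcript, 5′ to 3′, with the element in capitals.
Cox5a: tgcctggaaatgTTTTATttgaacaaattt
Cox6a2: cctgcattttcaTTTTATtttttaaaaatt
Ndufab1: aaatttcagactTTTTATtaacaataaatt
Ndufaf3: tttttcccaaacTTTTATtgaaaaattcaa
Ndufaf6: aatgaTTTTATgttgctcatactgatttac
Ndufc2: atattttctgagTTTTATgggattttctgt
Ndufs4: ccaatggagatcTTTTATtcttaggaaata
Cox6a2 has 2 copies of the element in the window and each other gene shown has 1; the copy nearest the 3' end is the one in capitals. It began 85 nt from the 3' end in Cox5a, 78 in Ndufc2, 58 in Ndufs4, 52 in Cox6a2 and Ndufab1, 47 in Ndufaf6 and 21 in Ndufaf3. Their log2 changes in TubA20 against GV were -1.67 for Cox5a, -1.99 for Ndufc2, -1.01 for Ndufs4, -2.09 for Cox6a2, -0.46 for Ndufab1, -1.86 for Ndufaf6 and -4.31 for Ndufaf3. None of the 5 members more than 2-fold higher had the letters in this window. The poly(A) signal AATAAA in the last 40 nt of the 3' UTR was as common in members (61.6%) as in other genes (62.0%).

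NRF1, nuclear respiratory factor 1, is a transcription factor known for its sites at respiratory chain promoters. Its core motif, the 10 capital letters in the sequences below, is a palindrome and so the same on both strands. It occurred within 250 bases before to 50 after the gene start in 7 of the 76 members with a RefSeq promoter (9.21%), in 1.44% of 17416 other protein-coding promoters and in 2.60% of those of genes with at least 5 FPKM. The 7 sites, shown because the share is above that of other promoters, are given as 30 bases of the gene's strand with the motif in capitals, from RefSeq on GRCm38.p6.
Atp5g2: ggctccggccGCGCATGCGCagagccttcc
Atp5k: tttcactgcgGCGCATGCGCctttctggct
Cox6a1: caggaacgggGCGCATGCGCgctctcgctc
Ndufa11: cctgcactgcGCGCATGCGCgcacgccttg
Ndufaf4: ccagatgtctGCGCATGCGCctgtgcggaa
Ndufaf5: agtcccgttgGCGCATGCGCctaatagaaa
Uqcrc1: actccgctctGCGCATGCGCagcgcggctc
These windows lie at chr15:102671070-102671099 (Atp5g2), chr5:108434430-108434459 (Atp5k) and chr5:115349101-115349130 (Cox6a1) on the minus strand, and at chr17:56717692-56717721 (Ndufa11), chr4:24897960-24897989 (Ndufaf4), chr2:140170652-140170681 (Ndufaf5) and chr9:108936668-108936697 (Uqcrc1) on the plus strand. The changes of the 7 genes in TubA20 against GV ran from -2.56 (Atp5k) to 0.77 (Cox6a1), and their median of -1.84 lay near the -1.64 of the members without the letters. A match describes the sequence and does not show that a factor binds there.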

How the data were processed

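RNA of 4 pools of oocytes was measured by sequencing of poly(A)-selected, strand-marked libraries, so the amount of an mRNA and the length of its poly(A) tail cannot be told apart. The labels name TRIzol and the study's methods another kit for RNA extraction. The deposited values are FPKM per gene, made by the authors with STAR 2.5.0, Cufflinks and Cuffdiff 2.2.1 on mm10, per the submitters' processing notes. Of 21959 entries, 21794 matched a symbol by Ensembl ID, and entries that share a symbol were summed. Changes were computed as log2((FPKM + 1)/(FPKM + 1)) in Python 3.11.15 with pandas 2.3.3 and counted past 2-fold with no minimum; the scripts were tested on simulated data. Gene positions and 3' UTRs came from GENCODE M21 (GRCm38), 1 principal transcript per gene, and pseudogene copies from blastn 2.17.0. Named members were, per complex, the 3 lowest and 3 highest in TubA20 against GV, the 5 lowest and 5 highest in TubA20 against MII (each with at least 5 FPKM in 1 of the 2 libraries), every member more than 2-fold higher, the core subunits, the c-ring genes and the tissue isoforms; of each pathway list, the lowest and highest. An item withheld from this text is not reported here. Other members are named where a count was small or they stood out. Members and lists were chosen with earlier results of these data known. The alternatives tried were other pseudocounts, minimum levels and scalings, the highest entry per symbol and subunits only.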

Additional observations from a re-analysis of the deposited data

How the results depend on the processing

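Each count and median by complex was recomputed under 10 other settings, of which the minimum of 50 FPKM was chosen after seeing the data, and 398 of 420 recomputed values were counts within 1.5 times the reported one or medians on the same side of 2-fold, which can still move below it; none changed sign while past 2-fold. With a minimum of 1 FPKM the complex IV medians against GV were -0.37 in MII, -0.30 in TubA10 and -0.89 in TubA20, and at 50 FPKM that of complex III in TubA20 was -1.36. Medians near 0 turned sign for complex IV in TubA10 against GV (0.06 with equal Gapdh), complex II in TubA20 against MII (0.05 with equal upper quartiles) and complex IV at 50 FPKM in TubA20 against MII (0.07) and TubA10 (0.12). In TubA10 against GV, equal Gapdh left 22 members lower. Members more than 2-fold higher in MII than in GV numbered 1 with equal upper quartiles and 2 with equal Gapdh, and in TubA10 against GV 1 at pseudocounts of 0.1 and 0.01 but 3 with equal Gapdh. In TubA10 against MII 4 were higher with a pseudocount of 0.1 or 0.01, 1 with the median change set to 0 or with equal upper quartiles, and 1 was lower with 0.01. In TubA20 against MII 0 were higher with the median change set to 0 or equal Gapdh, and 15 were lower at 50 FPKM. In TubA20 against TubA10 1 was higher with the median change set to 0 or equal Gapdh. With the median change set to 0, medians against GV passed 2-fold for complexes I (-1.06) and III (-1.07) in MII and V (-1.09) in TubA10. In TubA20 against TubA10 the median of complex I was -0.89 with equal upper quartiles and -0.98 at 50 FPKM, and that of complex II was -1.01 with equal Gapdh and -1.29 at 50 FPKM. The cause of these shifts was not tested. Over all genes, the share of calls that were higher in TubA20 than in GV was 39.4% as deposited, 22.9% once the median change was 0 and 49.5% at equal upper quartiles. For MII it was 26.7%, 13.7% and 33.0%, and 51.0% with equal Gapdh, and for TubA10 11.7%, 4.23% and 13.2%, and 46.6% with equal Gapdh. No paired analysis was possible because each condition was 1 library. With 1 library per condition no value has an error, and the counting precision of low levels such as those of Ndufa4l2, Cox4i2 and Uqcrc1 was not estimated.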
